A study of Mus musculus with 16 samples.

Results

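The genes of the circadian clock were followed through RNA-sequencing libraries of sorted mouse microglia. The 10 genes were taken by symbol as members of the clock, and all 10 (Arntl, Clock, Per1, Per2, Per3, Cry1, Cry2, Nr1d1, Nr1d2 and Dbp) were among the 17951 genes listed. Microglia, the resident macrophages of the brain, were sorted as Cd11b+ and Cd45+ cells after the mice had been injected with Methoxy-X04 (Me-X04), a dye that enters the brain and binds amyloid beta aggregates. The labels give all mice the strain 5xFAD, whose TG mice carry mutated human transgenes that lead to amyloid deposits, under a neuronal promoter, so that these are not driven in microglia themselves.

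There were 16 libraries in 3 groups. The WT group had 7 libraries from mice without the transgenes, whose microglia held no dye. The 5 TG Me-X04- libraries came from transgenic microglia without dye, and the 4 TG Me-X04+ libraries from transgenic microglia that had taken up the dye. By their labels, the Me-X04- and Me-X04+ cells numbered 1 to 4 were 2 populations sorted from the same 4 transgenic animals (TG 1 to 4). The labels give the WT mice as 2 months old and the TG mice as 6 months old, so by the labels genotype and age cannot be told apart. The animals lived in a light-dark cycle, but the time of day at which each brain was taken is not given in the sources used here.

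The clock is a loop of transcription and translation that runs in nearly all cells, microglia included. The activators Arntl (also called Bmal1) and Clock bind together to E-box sequences and switch on the Per and Cry genes, whose proteins then block the activators, and they also switch on Nr1d1 and Nr1d2 (Rev-erb alpha and beta), which repress Arntl through ROR elements. Dbp, an output of the same E-boxes, acts on D-box sequences such as those of the Per genes. In a rhythmic tissue the RNA of Arntl peaks at about the opposite time of day from the RNAs of Nr1d1, Nr1d2, Dbp and Per3, so their relative levels report the time at which a sample was taken.

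These boxes were searched in the promoters of the members, from 250 bases before to 50 bases after each RefSeq start on GRCm38.p6. A promoter was at hand for 9 of the 10 members, and the sequence around some of the matches is shown. These are matches of letters, and whether any of them is bound was not tested. Both strands were searched. The E-box was written as CACGTG, which 7.15% of all 32851 promoters of that length held. The E-prime box was written as CACGTT (4.68% of promoters) and the D-box as TTANGTAA (2.32%). The ROR element was written as TNGGTCA (11.0% of promoters), with the variant TNGGTTA (7.19%). The matches below are written 5′ to 3′ on the strand of the gene with the box in capitals. The E-prime boxes lay on the other strand, so that their capitals are the reverse complement of the letters given.
Cry1 E-box, chr10:85185098-85185126, minus strand: ggtgccggtggtCACGTGgggtgcatgcc
Cry1 E-prime box, chr10:85185117-85185145, minus strand: acacacttcagaAACGTGaggtgccggtg
Per1 E-box, chr11:69098771-69098799, plus strand: agcacccaagtcCACGTGcagggatgtgt
Nr1d1 E-prime box, chr11:98775389-98775417, minus strand: cgcacagatctcAACGTGccggctgctgg
Cry2 E-prime box, chr2:92434219-92434247, minus strand: acacatggtgggAACGTGagggggcggag
Per3 distal D-box, chr4:151044853-151044882, minus strand: ccgacccgcgcgTTATGTAAggtactcggg
Per3 proximal D-box, chr4:151044806-151044835, minus strand: acccgcccgcggTTATGTAAcccccgccgt
Arntl ROR variant, chr7:113207493-113207522, plus strand: ttggtcggaaagTAGGTTAgtggtgcgaca
Arntl ROR element, chr7:113207529-113207558, plus strand: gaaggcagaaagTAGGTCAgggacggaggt
The E-box of Cry1 began 60 bases before the start and its E-prime box 79 bases before it. The first of 2 Per1 starts had its E-box 166 bases upstream. The 2 D-boxes of Per3 began 205 and 158 bases upstream, and the E-prime box of Nr1d1 28 bases upstream. Arntl has 2 starts close together, and relative to the second one its ROR variant began 6 bases before and the ROR element shown 31 bases after the start. Other matches of the ROR element lay 200 and 181 bases before the first start of Arntl, 118 bases before that of Per3 and 133 bases before that of Cry2. No box was found in these windows of Clock, Nr1d2 and Dbp, which says only that these letters are not in these windows.

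The table holds log2 RPKM, that is, log2 of reads per kilobase of gene, scaled to library size, with a small prior added by the authors, so levels can be set side by side between genes. The libraries held between 15623664 and 27579017 reads on the listed genes. TG Me-X04+ 1 and 2 had 1831 and 1781 listed genes at 0 reads, and the other libraries 55 (WT 6) to 1381 (WT 3). The library sizes behind the deposited values were 0.59 and 0.54 times the reads in TG Me-X04+ 1 and 2, the lowest ratios of all libraries. The part of this in their low values was not tested. Along the first principal component of the residuals (37.8% of their variance) the libraries fell into 2 sets that cut across the groups. Set A has 7 libraries, namely WT 1 to 3 and both libraries of the animals TG 1 and TG 2. Set B has the other 9, namely WT 4 to 7, both libraries of TG 3 and TG 4, and TG Me-X04- 5. The methods of the study name 2 sequencing platforms for these libraries, and which library ran on which is not given in the sources used here. Reads on mitochondrial genes took 11.0 to 24.1% of a WT library, 18.2 to 35.6% of a TG Me-X04- library and 27.2 to 44.8% of a TG Me-X04+ library. All 9 microglial markers (among them Cx3cr1, P2ry12 and Tmem119) were present at a summed level of 4047 to 8044 RPKM. The markers of neurons did not sum above 1.91 RPKM in any library, those of astrocytes not above 4.56, of oligodendrocytes 7.05, of endothelium 12.5, of monocytes and neutrophils 22.2 and of lymphocytes 0.891 RPKM. The markers of border macrophages summed to at most 18.6 RPKM in the Me-X04+, 5.76 in the Me-X04- and 4.84 in the WT libraries, and their part in the results was not tested.

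In WT microglia the members spanned a wide range of levels. Nr1d2 (median 2.76 log2 RPKM), Per1 (2.62) and Clock (2.51) stood highest. Arntl (1.59), Per3 (1.43), Cry1 (1.06), Nr1d1 (0.73), Dbp (0.41), Cry2 (-0.22) and Per2 (-0.54) followed in that order. Neighbours in this order overlapped in their ranges over the 7 libraries, except that every WT library of Clock was above every WT library of Arntl. Nr1d2, Per1 and Clock were also the upper 3 in both TG groups, and Per2 was the lowest member in all 3 groups.

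The first comparison asks how the clock genes stood in TG Me-X04+ against TG Me-X04- microglia, the 2 populations sorted from the same brains. All 10 members had a log2 fold change below 0, with a median of -0.93, beside a median of -0.09 over all genes and 55.6% of all genes below 0. Without TG Me-X04+ 1 the median of the members was -0.51, and with a pseudocount of 1 it was -0.43. None of the 10 was DE, which needed a log2 fold change of 0.7 or more in size and an adjusted p under 0.05 in limma. That call was made for 5.49% of all genes, 2.06% lower and 3.44% higher. By the adjusted p alone 0 members passed as well (5.58% of all genes), and 3 of the 10 (Clock, Per2 and Nr1d1) had an unadjusted p under 0.05, as did 18.7% of all genes. Scaling by the reads outside mitochondrial genes moved the median of all genes to -0.49 and that of the members to -1.32. That scaling also turned the share of called genes that were higher from 62.6% to 20.8% (50.8% under quantile normalization). In bulk samples, fewer cells of a type and less RNA per cell cannot be told apart.

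**Figure D1:**
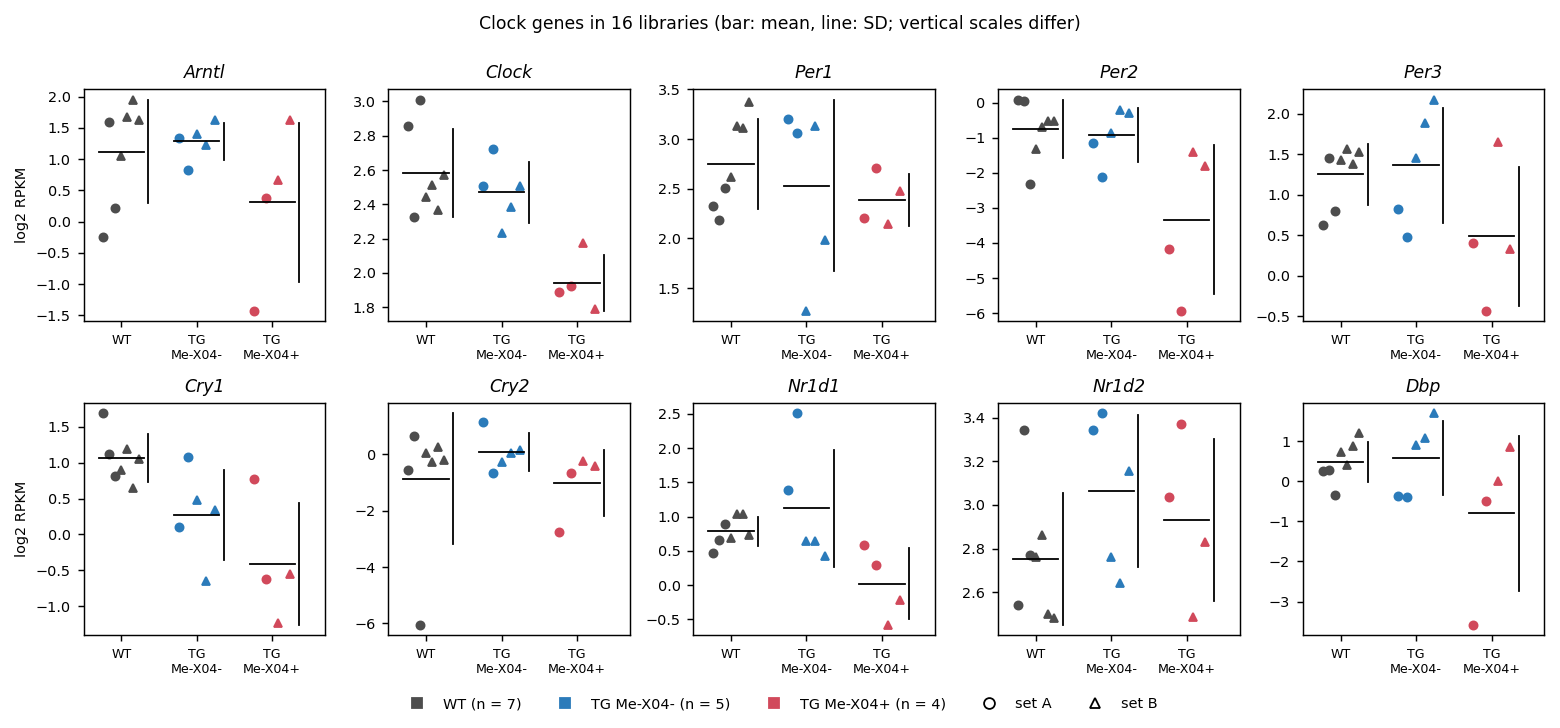
Each panel plots 1 clock gene in log2 RPKM (vertical axis) in the groups WT, TG Me-X04-, TG Me-X04+ (horizontal axis, 7, 5 and 4 libraries). Points are libraries (circles set A, triangles set B), bars are group means and vertical lines are 1 SD either way. Clock in TG Me-X04+ libraries, 1.79 to 2.17, lies below all other libraries, whereas Arntl, Per1 and Nr1d2 overlap across the groups.

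The activators come first, with gene positions on GRCm38. Arntl (chr7:113207465-113314126, plus strand) had a lowest value of -0.24, a median of 1.59 and a highest value of 1.94 log2 RPKM in WT. The 5 TG Me-X04- libraries gave 1.33, 0.82, 1.41, 1.22 and 1.63, and the 4 TG Me-X04+ libraries -1.43, 0.38, 0.66 and 1.63. The TG Me-X04+ libraries thus ran from the bottom of all 16 to the level of the highest TG Me-X04- library, and the groups overlapped. The difference between the TG groups was -0.97 ± 0.55 (log2 fold change ± SE, adjusted p = 0.364). Without TG Me-X04+ 1 it was -0.39. Within set A it was -1.60 and within set B -0.28. TG Me-X04+ 1, with 13 reads on Arntl, and WT 1, with 39, were the lowest libraries, and the other libraries held 49 to 279.

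Clock (chr5:76209868-76304792, minus strand), the partner of Arntl, had a residual SD of 0.22, smaller than that of nearly all other genes. WT libraries ran from 2.33 through a median of 2.51 to 3.01 log2 RPKM. TG Me-X04- libraries were at 2.5, 2.72, 2.23, 2.39 and 2.5, and TG Me-X04+ libraries at 1.89, 1.92, 2.17 and 1.79. All 4 TG Me-X04+ libraries lay below all 5 TG Me-X04- libraries and all 7 WT libraries. Clock was the 1 member without overlap in either comparison, beside 7.93% of all genes without overlap between the TG groups and 10.5% between TG Me-X04+ and WT. The change from TG Me-X04- was -0.53 ± 0.21 (adjusted p = 0.169). The change from WT was -0.64 ± 0.20 (adjusted p = 0.0345), which passed the p threshold but not the fold threshold of 0.7. Without TG Me-X04+ 3 Clock was called against WT (-0.72, adjusted p = 0.0362). After scaling by the reads outside mitochondrial genes it was called against WT (-0.94, adjusted p = 0.0041) and against TG Me-X04- (-0.92, adjusted p = 0.0177).

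Among the repressors, Per2 (chr1:91415982-91459324, minus strand), a period protein that carries the feedback on the activators, had the largest difference. WT libraries had -2.33 at the lowest, -0.54 at the median and 0.07 at the highest. Those of TG Me-X04- were at -1.15, -2.11, -0.88, -0.21 and -0.29. TG Me-X04+ libraries gave -4.18, -5.94, -1.42 and -1.81, which stood for 3, 0, 48 and 37 reads. The TG Me-X04+ libraries of set A, the first 2, were far below those of set B, and the latter overlapped both other groups. Against TG Me-X04- the difference was -2.41 ± 0.80 (adjusted p = 0.0948), and within the sets it was -3.43 in A and -1.16 in B. With a term for the sets Per2 was called (-2.29, adjusted p = 0.0401), as it was without TG Me-X04+ 3 (-3.05, adjusted p = 0.0384), and without TG Me-X04+ 2 it was at -1.54.

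Per1 (chr11:69095217-69109960, plus strand), the period gene that also answers directly to light and stress signals, had WT values of 2.18 at the lowest, 2.62 at the median and 3.38 at the highest. The TG Me-X04- libraries gave 3.21, 3.06, 1.27, 3.13 and 1.99, and the TG Me-X04+ libraries 2.20, 2.71, 2.15 and 2.48. TG Me-X04+ libraries lay inside the range of the TG Me-X04- libraries, and the difference of -0.15 ± 0.38 was smaller than its error (adjusted p = 0.88). Its sign turned between the sets, with -0.68 in A and 0.18 in B.

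Per3 (chr4:151003652-151044665, minus strand), the period gene with the 2 D-boxes shown above, ran from 0.63 through 1.43 to 1.56 in WT. In TG Me-X04- it was at 0.82, 0.48, 1.45, 1.89 and 2.18, and in TG Me-X04+ at 0.41, -0.43, 1.65 and 0.33. In both TG groups the libraries of set B reached higher than those of set A, and TG Me-X04+ 3 was above most other libraries. The difference between the TG groups was -0.88 ± 0.43 (adjusted p = 0.284), and -0.57 without TG Me-X04+ 2.

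The cryptochromes Cry1 and Cry2 join the period proteins in blocking the activators. Cry1 (chr10:85131700-85185064, minus strand) had 0.65, 1.06 and 1.69 as its lowest, median and highest WT values. TG Me-X04- libraries gave 0.11, 1.08, 0.48, -0.66 and 0.33, and TG Me-X04+ libraries 0.78, -0.62, -1.24 and -0.56. The means were 1.06 ± 0.33 (SD) for WT, 0.27 ± 0.63 for TG Me-X04- and -0.41 ± 0.85 for TG Me-X04+, and neighbouring groups overlapped. The difference between the TG groups was -0.68 ± 0.42 (adjusted p = 0.425), with -1.07 when TG Me-X04+ 1 was left out and -0.40 when TG Me-X04+ 3 was.

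Cry2 (chr2:92403646-92434043, minus strand) had single libraries far from the rest. WT libraries ranged from -6.05, which is 0 reads in WT 3, through a median of -0.22 to 0.66, and the other 6 WT libraries were at -0.55 or above. TG Me-X04- libraries had 1.13, -0.65, -0.29, 0.03 and 0.17, and TG Me-X04+ libraries -2.77, -0.67, -0.23 and -0.42. TG Me-X04+ 1, with 11 reads, stood apart from its group. Between the TG groups Cry2 differed by -1.10 ± 1.05 (adjusted p = 0.636), or by -0.52 without TG Me-X04+ 1, and the residual SD of Cry2, 1.71, was larger than that of 97% of all genes. On the opposite strand D930015M05Rik overlaps 4.67% of its exon bases, and reads of the 2 genes cannot be told apart without strand.

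Nr1d1 (chr11:98767932-98775333, minus strand), the Rev-erb alpha receptor that represses Arntl, had WT values of 0.47, 0.73 and 1.04 (lowest, median and highest). TG Me-X04- libraries gave 1.40, 2.51, 0.64, 0.64 and 0.42, and TG Me-X04+ libraries 0.59, 0.29, -0.58 and -0.22. Each of the 4 TG Me-X04+ libraries was below the TG Me-X04- library of its own animal, with differences of -2.21 to -0.80. The difference between the groups was -1.10 ± 0.40 (adjusted p = 0.135), with -1.51 in set A and -0.97 in set B. With a term for the sets Nr1d1 was called (-1.15, adjusted p = 0.0392), and so it was after scaling by the reads outside mitochondrial genes (-1.49, adjusted p = 0.0197). Thra, on the opposite strand, overlaps 8.55% of its exon bases.

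Nr1d2 (chr14:18204054-18239127, minus strand), the Rev-erb beta receptor, had ranges that lay over each other in the 3 groups. WT libraries were at 2.48, 2.76 and 3.34 (lowest, median and highest), TG Me-X04- libraries at 3.34, 3.42, 2.76, 2.64 and 3.16, and TG Me-X04+ libraries at 3.04, 3.37, 2.49 and 2.83.. The difference between the TG groups was -0.13, with a 95% interval from -0.66 to 0.39.

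Dbp (chr7:45705088-45710203, plus strand), the output factor that binds D-boxes, ran from -0.35 through 0.41 to 1.19 in WT. In TG Me-X04- Dbp was at -0.37, -0.38, 0.90, 1.07 and 1.69, and in TG Me-X04+ at -3.58, -0.49, 0.00 and 0.86, the lowest of which stood for 2 reads. In both TG groups the set A libraries were below the set B libraries, by more than the groups differed within set B (-0.79). The fitted difference was -1.38 ± 0.70 (adjusted p = 0.31), and without TG Me-X04+ 1 it was -0.46. Sphk2 on the opposite strand overlaps 18.0% of the exon bases of Dbp.

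**Figure D2:**
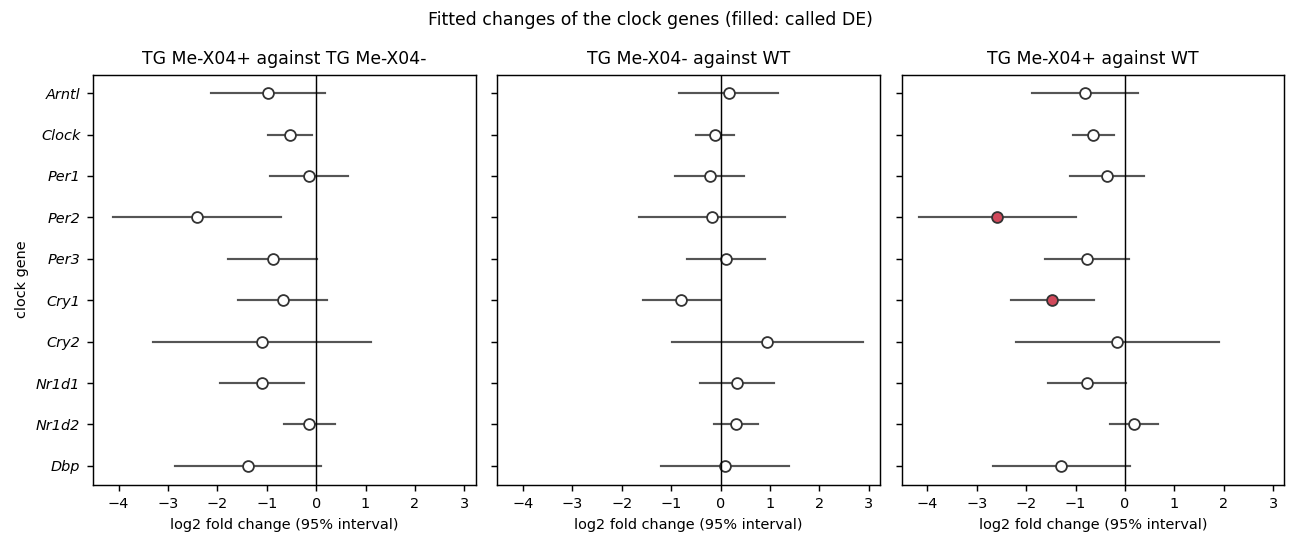
Points are fitted log2 fold changes of the 10 clock genes (rows) in the 3 comparisons (panels), lines are 95% intervals, and filled points mark genes called DE. Against TG Me-X04- all 10 points of TG Me-X04+ lie below 0 with none filled, and against WT only Per2 (-2.58) and Cry1 (-1.47) are filled.

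The shared animals give the same comparison without differences between mice. The fit above had no term for the animal, and no test was run on the differences below. Clock, Per2, Nr1d1 and Dbp were lower in the Me-X04+ cells of 4 of 4 animals. The log2 differences (Me-X04+ minus Me-X04-) ran from -0.80 to -0.06 for Clock, from -3.82 to -0.54 for Per2, from -2.21 to -0.80 for Nr1d1 and from -3.21 to -0.10 for Dbp. Arntl, Per1, Per3, Cry2 and Nr1d2 were lower in 3 of 4 animals, and Cry1 in 2 of 4. The share of all genes lower in 4 of 4 animals was not computed, and 55.6% of all genes had a fitted fold change below 0. These counts are thus not read as a trait of the clock genes. The animals differed in the size of these values. In TG 1 the difference was -2.76 for Arntl, -3.89 for Cry2 and -3.21 for Dbp, whereas in TG 4 it was 0.40 for Arntl, -0.45 for Cry2 and -0.21 for Dbp.

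**Figure D3:**
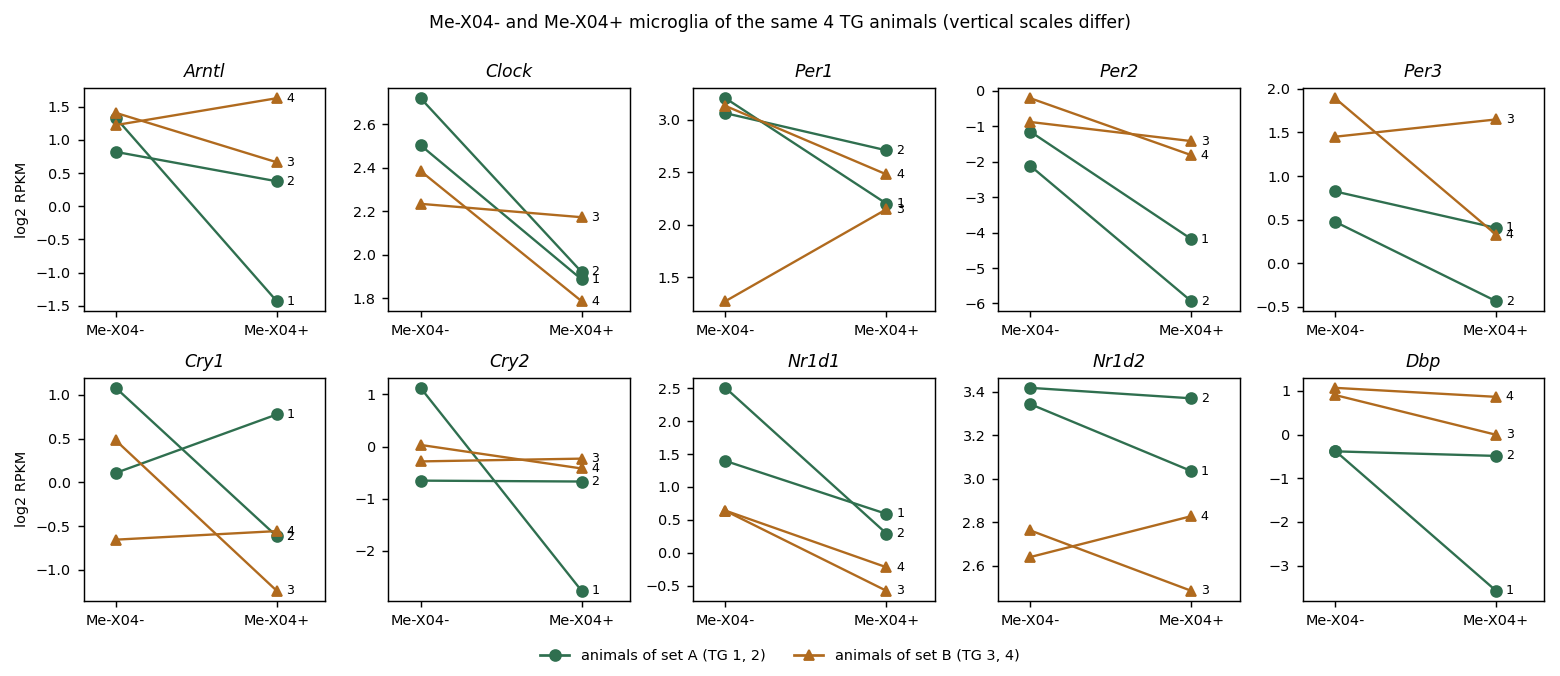
Each panel shows 1 clock gene in log2 RPKM (vertical axis) in the Me-X04- and Me-X04+ microglia (horizontal axis) of the 4 TG animals, which are numbered at the right. Lines join the 2 libraries of an animal (circles set A, triangles set B): all 4 fall for Clock, Per2, Nr1d1 and Dbp, and the lines of Cry1 cross.

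The second comparison sets TG Me-X04- against WT microglia, neither of which held dye. No member was called or had groups without overlap, beside 0.201% of all genes called (0.0111% lower and 0.189% higher) and 1.06% without overlap, and limma gave 1 member (Cry1) an unadjusted p under 0.05, as it did 5.18% of all genes. Of the 10 members, 4 had a fold change below 0, and the median was 0.10 (0.01 over all genes). Cry1 differed by -0.79, with a 95% interval from -1.57 to -0.01 (adjusted p = 0.959). The intervals of the other members all included 0, from the narrow one of Clock (-0.50 to 0.27) to the wide one of Cry2 (-0.98 to 2.87). Several signs turned between the sets: Per1 differed by 0.80 in set A and -0.93 in set B, and Nr1d1 by 1.28 in set A and -0.31 in set B.

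The third comparison sets TG Me-X04+ against WT, which by the labels differ in genotype, age and dye together. It shares its libraries with the comparisons above. Here 2 of the 10 members were called, both lower, where 14.3% of all genes were called, 6.02% lower and 8.25% higher. Clock also passed by the adjusted p alone, as did 14.8% of all genes. Per2 had a log2 fold change of -2.58 ± 0.75 (5.99-fold lower, adjusted p = 0.0266) and Cry1 of -1.47 ± 0.40 (2.77-fold lower, adjusted p = 0.0177). Nr1d1 was at -0.77 ± 0.38 (adjusted p = 0.198), and was called in set B alone (-1.27), with library weights (-1.11) and after scaling by the reads outside mitochondrial genes (-1.07). Altogether 9 members had a fold change below 0, with a median of -0.77 (-0.11 over all genes, 55.9% below 0). Without TG Me-X04+ 1 there were 8 below 0 and the median over all 10 was -0.49, with Arntl at -0.23, Dbp at -0.36 and Cry2 above 0 at 0.43. With a pseudocount of 1 the median was -0.44. With all libraries Nr1d2 was the exception at 0.18 ± 0.23, and this turned to -0.12 when libraries were scaled by the reads outside mitochondrial genes.

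The Per2 call came from libraries with few reads, and with a pseudocount of 1 its log2 fold change was -0.49 (adjusted p = 0.0491), under the fold threshold. Without TG Me-X04+ 1 it was -2.30 (adjusted p = 0.0749) and without TG Me-X04+ 2 it was -1.72 (adjusted p = 0.11). With library weights it was -1.65 (adjusted p = 0.0799). In set B alone Per2 differed by -0.85 (adjusted p = 0.161). A fit with the replicate block gave -2.40 (adjusted p = 0.108). That block ties WT mice to TG animals of the same number, although these are different mice. The Cry1 call was lost without TG Me-X04+ 3 (-1.19, adjusted p = 0.0658), under quantile normalization (-1.33, adjusted p = 0.0673) and in set A alone (-1.13, adjusted p = 0.335). In set B alone Cry1 differed by -1.85.

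Activators were then set against the genes of the opposite phase, as a reading of the time of collection. The level of Arntl minus the mean of Nr1d1, Nr1d2, Dbp and Per3 had a median of 0.14 in WT (range -1.22 to 0.49). For TG Me-X04- the median was -0.23 (range -0.69 to 0.03), and for TG Me-X04+ it was -0.27 (range -1.54 to 0.68). The 3 ranges overlapped, and the spread within WT was larger than the distance between the medians. In WT the set A libraries were at -1.22, 0.15 and -0.81, and those of set B ran from -0.36 to 0.49. The lowest TG Me-X04+ value was that of TG Me-X04+ 1, which held 13 reads on Arntl and 2 on Dbp. Within the 4 animals with both kinds of cells the libraries differed by 0.19 to 1.58 (median 0.70), and the 16 pairs that took the 2 kinds of cells from different animals differed by a median of 0.55. The part of the time of collection in these values was not tested.

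**Figure D4:**
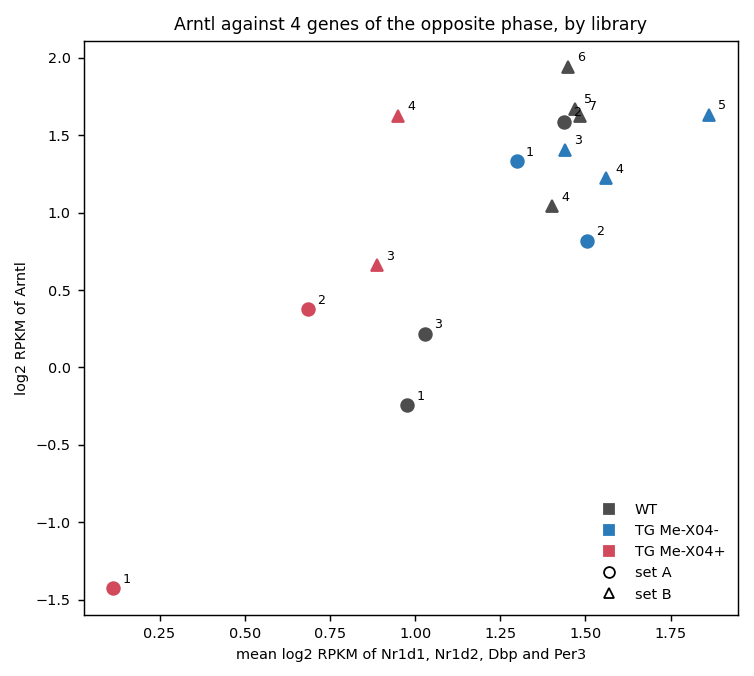
The log2 RPKM of Arntl (vertical axis) is plotted against the mean log2 RPKM of Nr1d1, Nr1d2, Dbp and Per3 (horizontal axis), with 1 point per library, coloured by group, shaped by set and numbered by replicate. The points run from TG Me-X04+ 1 at the lower left (Arntl -1.43) to WT 6 at the top (1.94), and low Arntl does not come with high values on the horizontal axis.

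Across mice taken at different times of day, opposite phases would give a negative relation of Arntl and Nr1d1. Mice taken at the same time of day need not show it. Since the times are not given, the values below cannot decide whether the phases were opposite. Over the 12 mice with a WT or TG Me-X04- library, after the group means were removed, Pearson's r was -0.08 (permutation p = 0.799) and Spearman's rho 0.06 (p = 0.852, adjusted p over 9 relations of Arntl 0.845 for r and 0.956 for rho). Without WT 1 and WT 3, the libraries farthest from the median of Arntl, r was -0.34, and within the 7 mice of set B it was 0.46. Set A had 5 mice, and no correlation was computed for it.

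Of the other 8 relations of Arntl, 1 passed the threshold on Pearson's r. Clock ran against Arntl with r of -0.80 (permutation test, adjusted p = 0.0199), but rho was -0.62 (adjusted p = 0.170). Without WT 1 and WT 3 its r was -0.57, and within set B it was 0.07, so the relation was not seen within set B. Dbp and Per3, both of the opposite phase, had positive r with Arntl, 0.51 (adjusted p = 0.208) and 0.67 (adjusted p = 0.0769), and within set B these were 0.30 and 0.18. Nr1d2, also of the opposite phase, had r of 0.06 (adjusted p = 0.845), and 0.01 within set B.

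Beside the 10 members, 27 other genes of the clock pathway were listed, and 22 were measured. In TG Me-X04+ against TG Me-X04-, 1 of the 22 was called higher and 2 lower, with a median log2 fold change of -0.13, beside 3.44% of all genes called higher and 2.06% lower. In TG Me-X04- against WT 1 was called higher (0.189% of all genes). In TG Me-X04+ against WT 3 were called higher and 3 lower (8.25% and 6.02% of all genes), with a median of -0.03.

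The other repressors of the activators are Bhlhe40 and Bhlhe41 (Dec1 and Dec2), which compete for E-boxes, and Ciart. Bhlhe40 (chr6:108660629-108666925, plus strand) had a lowest value of -5.10, a median of -3.92 and a highest value of -2.84 in WT, which stood for 0 to 9 reads. TG Me-X04- libraries were at 1.09, -0.10, -1.34, 0.94 and -0.89, and TG Me-X04+ libraries at 1.59, 3.58, 3.09 and 3.54. The 3 groups did not overlap at all, and the highest library held 895 reads. The log2 fold change of Bhlhe40 was 3.01 ± 0.64 between the TG groups (8.05-fold higher in TG Me-X04+, adjusted p = 0.0107) and 3.80 ± 0.56 between TG Me-X04- and WT (adjusted p = 0.00378). Bhlhe41 was far more abundant, with a WT median of 4.99. Its difference of TG Me-X04+ from WT, 0.68 ± 0.21 (adjusted p = 0.0352), fell just short of the fold threshold, and Ciart differed by 0.06 ± 0.51.

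The Bhlhe40 call between TG Me-X04- and WT was lost under the replicate block (3.41, adjusted p = 0.0663), in set A alone (4.19, adjusted p = 0.20) and in set B alone (3.56, adjusted p = 0.107). Between the TG groups it was lost in set A alone (2.09, adjusted p = 0.385).

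**Figure D5:**
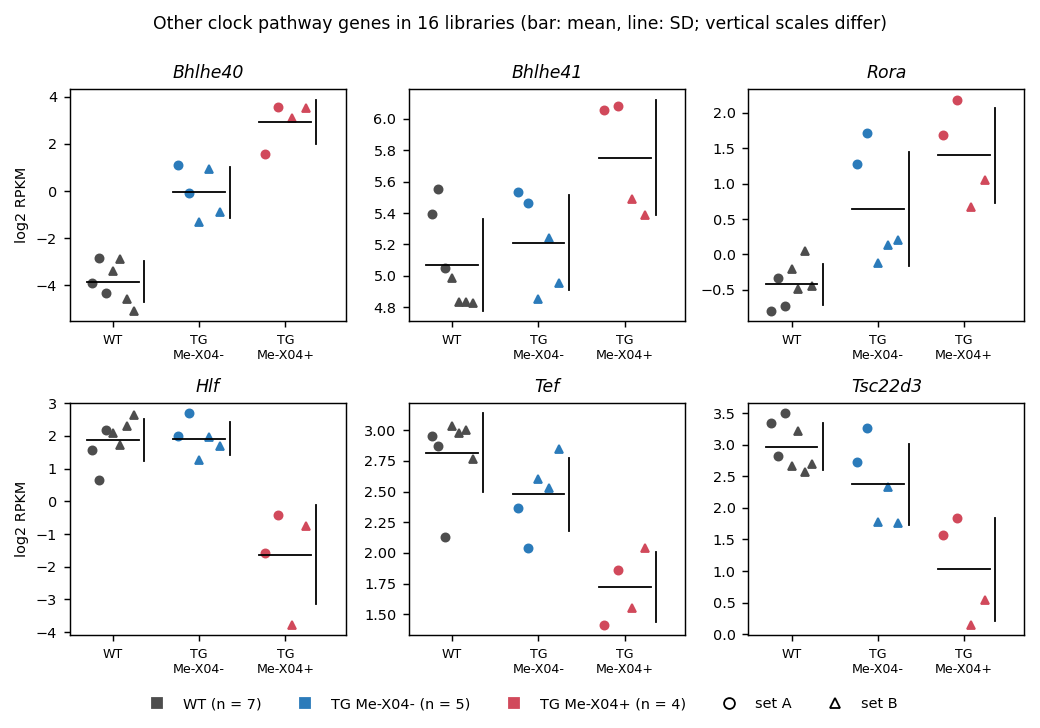
Each panel plots 1 gene in log2 RPKM (vertical axis) in the groups WT, TG Me-X04-, TG Me-X04+ (horizontal axis, 7, 5 and 4 libraries), with circles for set A, triangles for set B, bars for means and vertical lines for 1 SD either way. Bhlhe40 steps up over the 3 groups without overlap, and Hlf in TG Me-X04+ (-3.77 to -0.43) lies below all other libraries.

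Both relatives of Dbp that bind the same D-boxes were called lower in TG Me-X04+ than in WT. Hlf (chr11:90336536-90390895, minus strand) ran from 0.66 through 2.09 to 2.64 in WT. TG Me-X04- libraries were at 2.00, 2.69, 1.28, 1.96 and 1.69, and TG Me-X04+ libraries at -1.59, -0.43, -3.77 and -0.74. TG Me-X04+ lay below both other groups without overlap, while WT and TG Me-X04- differed by 0.04 ± 0.50. Between the TG groups the log2 fold change of Hlf was -3.56 ± 0.57 (11.8-fold lower in TG Me-X04+, adjusted p = 0.00151), and against WT it was -3.51 ± 0.53 (adjusted p = 0.000212). In set A alone both calls were lost (-3.35, adjusted p = 0.0804, and -2.48, adjusted p = 0.0538).

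Tef (chr15:81802421-81826863, plus strand), the other relative, had a WT range of 2.13 to 3.03 with a median of 2.95. TG Me-X04- libraries were at 2.37, 2.04, 2.60, 2.53 and 2.84, and TG Me-X04+ libraries at 1.42, 1.86, 1.56 and 2.04. Against WT, TG Me-X04+ was at -1.10 ± 0.23 (2.14-fold lower, adjusted p = 0.00277), a call lost in set A alone (-1.01, adjusted p = 0.159), and against TG Me-X04- the difference was -0.76 ± 0.24 (adjusted p = 0.0812). Nfil3, which competes with these factors for D-boxes, differed by -1.04 ± 0.81 between the TG groups.

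Rora, the receptor that activates Arntl through the ROR elements, stood at a WT median of -0.44. The TG Me-X04- median was 0.21 and the TG Me-X04+ median 1.37. It was higher in TG Me-X04+ than in WT by 1.82 ± 0.40 (3.53-fold, adjusted p = 0.0044), and the 4 TG Me-X04+ libraries (1.69, 2.19, 0.67 and 1.05) were above all WT libraries (-0.80 to 0.04). Between the TG groups the difference was 0.76 ± 0.43 (adjusted p = 0.367).

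The kinases and ubiquitin ligases that time the breakdown of the Per and Cry proteins formed a list of 10 with Timeless. None was called by limma in the first 2 comparisons, and 0 had an unadjusted p under 0.05. Timeless, a replication protein named for its insect clock relative, was called in TG Me-X04+ against WT (2.51 ± 0.74, adjusted p = 0.0282) from libraries of 0 to 77 reads, and without TG Me-X04+ 1, 2 or 3 or WT 7 that call was lost (adjusted p = 0.0820, 0.0647, 0.0926 and 0.0518), as it was under the replicate block (2.20, adjusted p = 0.124). Fbxl21, a Cry ligase subunit, differed by 1.50 ± 0.52 (adjusted p = 0.0621). The medians of the 10 were -0.04, 0.07 and -0.03 in the 3 comparisons.

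Among 5 output genes, Tsc22d3 was called. This gene, also a target of glucocorticoid hormones, had WT values of 2.56, 2.82 and 3.50 (lowest, median and highest), TG Me-X04- values of 2.73, 3.26, 1.78, 2.33 and 1.76, and TG Me-X04+ values of 1.58, 1.84, 0.15 and 0.54. The log2 fold change between TG Me-X04+ and WT was -1.95 ± 0.36 (3.85-fold lower, adjusted p = 0.00113), with no overlap. Between the TG groups it was -1.35 ± 0.38 (adjusted p = 0.0475). That call held in 14 of 26 alternatives. It was lost in 6 of 9 fits that left out 1 library (adjusted p = 0.0998, 0.102, 0.0838 and 0.0522 without TG Me-X04- 1, 2, 4 and 5, and 0.13 and 0.105 without TG Me-X04+ 3 and 4). It was also lost without the variance trend (adjusted p = 0.0603), with median centring (0.0969) and under quantile normalization (0.0709). The same held with a pseudocount of 1 (0.0622), only 2 groups (0.153) and set A alone (0.165). Nampt, whose product makes NAD, differed by 0.83 ± 0.51 between TG Me-X04+ and WT.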

How the data were processed

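The 16 libraries were made from total RNA with the Ovation RNA-Seq System V2. Per the submitters' processing notes and the methods, the authors trimmed reads with Trim Galore 0.4.4, aligned them to GRCm38 with STAR 2.5.4b, counted them with featureCounts, removed lowly expressed genes and scaled libraries by TMM in edgeR 3.24.3. The authors deposited log2 RPKM for 17951 genes, with gene length in bases. Further columns hold comparisons of their own (fold changes, p-values and other statistics), and these were not used. Whether counting used strand is not given in the sources used here. Age is taken from the labels. The methods of the study give other ages, stated for wild-type and transgenic animals together, so the age difference between the groups rests on the labels alone.

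The clock genes and the other lists were chosen with earlier results of these data known, as was the rule for naming genes: all 10 members, other pathway genes that were called or had the 2 largest changes of their list, hormone and immediate early genes that were called plus Tsc22d3, and the 3 genes with the highest and the 3 with the lowest correlation with Arntl and with Nr1d1. Of the gene symbols, 12919 were deposited and 4874 came from the reference. limma 3.58.1 (R 4.3.3) was fitted to all genes with 1 mean for each of 3 groups and a trend in the prior variance (lmFit and eBayes), and its two-sided p-values were adjusted by Benjamini-Hochberg over the whole table. The quasi-likelihood test of the study's methods needs counts and was not run on log2 values. DE meant a log2 fold change of 0.7 or more in size with an adjusted p under 0.05. Fold changes are on the scale of the deposited values with their prior (2 reads at the mean library size), which understates changes of low genes. Reads were recovered from the steps of the linear values (100% whole within 0.01) and gave depths, read numbers and the voom alternative. Correlations used 100000 permutations. Alternatives were a fit without the variance trend, weights for libraries, quantile normalization, centring on the median, a pseudocount of 1 or 0.1, filters at a mean of 0 or 2, only 2 groups, no fold threshold, the replicate block, a term for the 2 sets, voom, scaling by non-mitochondrial reads and each library left out. Fits within a set, and the alternatives of single genes other than the members, were chosen after seeing the data. The limma fit, for TG Me-X04+ against WT, and the recovery of reads were checked on simulated reads, drawn without sets or shared animals. The correlation tests were not. WT libraries come from separate mice by their labels, as do the libraries within each TG group. The p-values thus rest on the spread between animals of a group together with the difference between sets A and B. The main fit did not remove that difference. Over all genes the median residual SD was 0.72 in the main fit and 0.55 once sets were fitted. The main fit has no term for the animal. In TG Me-X04+ against TG Me-X04- it treats the libraries of the 4 shared animals as independent.

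Same-numbered TG libraries carry the same animal label, so their numbers pair them. Their deviations from the group means correlated at 0.29 to 0.33 over genes (4 pairs, mean 0.32). Between the TG groups, libraries of different animals in the same set correlated at 0.22 to 0.33 (6 pairs, mean 0.27). With WT libraries of the same set and another number, the mean was 0.32 for TG Me-X04- (14 pairs, 0.23 to 0.40). For TG Me-X04+ it was 0.29 (11 pairs, 0.19 to 0.39). Same-animal pairs thus did not stand apart from pairs of different animals in the same set. WT numbers pair nothing, so in comparisons with WT the replicate block ties different mice together. Calls lost there under the block do not measure an effect of shared animals.

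Positions are those of GENCODE M21 (the authors counted on an earlier release), and promoters are those of RefSeq on GRCm38.p6. Python 3.11.15 with matplotlib 3.10.9 drew the figures.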

Additional observations from a re-analysis of the deposited data

Results flagged for a closer look

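Of the 48 groups examined, formed by 16 clock genes in the 3 groups of libraries, 2 held a library far from the rest by Dixon's test at the 95% level, which chance alone does in about 5% of groups. Both belonged to WT 3. Cry2 was at -6.05 log2 RPKM (0 reads) there, and the other 6 WT libraries ran from -0.55 to 0.66. Tef was at 2.13 there, and the other 6 ran from 2.77 to 3.03.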

How the results depend on the processing

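No clock gene was called in TG Me-X04- against WT under any of 29 alternatives. In TG Me-X04+ against TG Me-X04-, 2 members were called with a term for the sets (Per2, Nr1d1) and 2 (Clock, Nr1d1) once libraries were scaled by non-mitochondrial reads, and 0 to 1 when a library was left out (Per2 without TG Me-X04+ 3, adjusted p = 0.0384). In TG Me-X04+ against WT the 2 calls became 4 under that scaling, 1 with quantile normalization, a pseudocount of 1, a filter at a mean of 0 (which removes Per2 and Cry2), only 2 groups, voom or set A alone, 0 with a filter at a mean of 2 (which leaves 3 members), and 1 to 2 when a library was left out. Per2 was past the thresholds in 18 of 26 alternatives and Cry1 in 24 of 27.

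Under the replicate block, which ties WT mice to TG animals of the same number, 1 member (Cry1) was called in TG Me-X04+ against WT. No other pathway gene (0) was called under it in TG Me-X04- against WT. The block changed no other number of calls by more than 1.5 times, but turned Cry2 in TG Me-X04+ against WT to 0.34. The other pathway genes called in TG Me-X04- against WT also fell from 1 to 0 with a pseudocount of 1, filters at 0 and 2, voom, set A and set B. In set A 0 of 3 were called between the TG groups, and the filter at 2 left 2 of 6 in TG Me-X04+ against WT.

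The relation of Arntl and Nr1d1 turned to r = 0.26 with group and set means removed, 0.57 in WT and 0.46 in set B, and ran from -0.30 to 0.27 when a library was left out (0.27 without TG Me-X04- 2). Signs that turned were all of differences not called. With library weights, Per1 between the TG groups was 0.015, and Arntl, Per2 and Nr1d1 in TG Me-X04- against WT were -0.20, 0.10 and -0.13. Quantile normalization turned Cry2 (TG Me-X04+ against WT) to 0.20, and non-mitochondrial scaling turned Nr1d2 to -0.12. In set A, Per1, Per3 and Dbp in TG Me-X04- against WT were 0.80, -0.31 and -0.44, and Per1 and Cry2 in TG Me-X04+ against WT were 0.12 and 0.26. In set B, Per1 between the TG groups was 0.18, and Arntl, Per2 and Nr1d1 in TG Me-X04- against WT were -0.15, 0.31 and -0.31. Leaving out 1 library gave -0.46 to 0.021 for Per1 and -0.28 to 0.014 for Nr1d2 between the TG groups. In TG Me-X04- against WT it gave -0.067 to 0.30 for Arntl, -0.39 to 0.10 for Per1, -0.44 to 0.12 for Per2, -0.10 to 0.33 for Per3, -0.015 to 0.51 for Nr1d1 and -0.18 to 0.34 for Dbp, and in TG Me-X04+ against WT -1.02 to 0.43 for Cry2. The causes were not tested, except where a filter removes the gene. All 10 members stayed below 0 between the TG groups in 19 of 24 alternatives that kept all 10, and 9 did in the other 5.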

Other observations

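Hormone and stress genes bear on a reading of the time of collection, because glucocorticoids follow the day. Of 5 glucocorticoid-responsive genes, Zbtb16 was called in TG Me-X04- against WT (4.35 ± 0.50 on the log2 scale, adjusted p = 0.000444), with 0 to 6 reads in WT libraries and 34 to 139 in TG Me-X04- libraries, and again in TG Me-X04+ against WT (4.70 ± 0.54, adjusted p = 1.7e-05). The first of these calls was lost in set A alone (adjusted p = 0.151) and with a pseudocount of 1 (0.67, adjusted p = 0.109). In these comparisons 0.201% and 14.3% of all genes were called. Tsc22d3 went the other way as given above. Sgk1 was called higher in TG Me-X04+ than in WT (0.89 ± 0.17, adjusted p = 0.00179), a call lost with scaling by non-mitochondrial reads (0.59), under quantile normalization (0.47) and in set A alone (0.64). Of 7 immediate early genes measured, Egr1 (2.90 ± 0.37, adjusted p = 4.42e-05) and Atf3 (2.94 ± 0.43, adjusted p = 0.000151) were called higher in TG Me-X04+ than in WT, where 8.25% of all genes were called higher. Atf3 was also called against TG Me-X04- (1.84 ± 0.46, adjusted p = 0.0258, 3.44% of all genes called higher). That call was lost in set A alone (adjusted p = 0.428), under non-mitochondrial scaling (1.44, adjusted p = 0.0907) and in 4 of 9 fits that left out 1 library (TG Me-X04- 2 or 5, adjusted p = 0.0541 and 0.0587, and TG Me-X04+ 2 or 4, adjusted p = 0.0612 and 0.0685).

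Members differed in how much they varied between libraries of a group. The residual SD of Clock (0.22 on the log2 scale) was at percentile 2 of all genes and that of Nr1d2 (0.33) at percentile 11, whereas Dbp (1.11), Per2 (1.24) and Cry2 (1.71) were at percentiles 75, 81 and 97. From set A to set B, with groups held fixed, Dbp was higher by 1.44, Per2 by 1.22 and Arntl by 0.99, and Nr1d1 lower (-0.55).

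After group and set were removed, the genes whose levels ran most like Arntl over the 16 libraries were Rab5if (r = 0.91), Cnot9 (0.87) and Gm22272 (0.85), among 10681 genes with a mean of at least 1, and the most opposite were Fam204a (-0.92), Gm22549 (-0.87) and Gid8 (-0.86). For Nr1d1 they were Mlph (0.86), 2510009E07Rik (0.85) and Pgm2l1 (0.85), and 4930412M03Rik (-0.92), Slc25a37 (-0.90) and Gm25993 (-0.90). Among the members, Dbp (0.62, percentile 96 of the 10681 genes) and Nr1d2 (0.60, percentile 95) ran most like Arntl and Cry1 (-0.39, percentile 14) least. The genes named before them are the extremes of all these correlations, and no test was run on them. These values describe 16 libraries of which 4 pairs share an animal, and TG Me-X04+ 1 held 13 reads on Arntl and 2 on Dbp. Over the 12 mice, with group means removed, Nr1d2 had r of 0.06 and rho of -0.02 with Arntl, and r of 0.01 within set B.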
